A study of Rattus norvegicus with 27 samples.

Results

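The last step of thyroid hormone driven differentiation, from 48 h to 96 h of T3, was examined in cultured rat oligodendrocyte precursor cells (OPCs) by comparing 3 T3 96 h arrays with 3 T3 48 h arrays, 1 of each from donors 1, 2 and 3. These are 6 of 27 arrays in all, and all 14217 genes that the array annotation names with a single symbol were compared. The cells were selected with A2B5 magnetic beads from cerebral cortices of rat pups of postnatal day 4 to 6, a positive selection meant to give OPC cultures of high purity, and expanded in PDGF-AA (20 ng/mL) with Noggin before T3 (10 nM) was given. The methods name SAS SD rats, and sex and litter are not given in the sources used here. The other groups used below, 3 arrays each, are PDGF cultures at 0 h, T3 cultures at 8 and 24 h, and cultures given T3 with IFNγ (10 ng/mL) for 48 or 96 h. PDGF arrays exist at 0 h only, so T3, the loss of PDGF and time in culture cannot be told apart. Array values are log2 signals, so a change of 1 is a 2-fold change.

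Oligodendrocyte differentiation runs from dividing precursors through newly formed, premyelinating cells to mature cells that make myelin, the lipid-rich sheath of central axons. Thyroid hormone times the exit from the cell cycle and the start of this program. Some myelin genes, such as Mbp and Cnp, are switched on early, while others, such as Mobp, Mog and Opalin, are known as genes of mature oligodendrocytes. Newly formed cells carry a set of genes of their own, and myelination draws on the synthesis of cholesterol, fatty acids and galactolipids.

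Between 48 and 96 h the late myelin genes rose, led by Mobp, Opalin and Mal, while cell division genes and sterol synthesis genes fell and genes of newly formed oligodendrocytes turned back. By limma with donor as a block, 2035 genes were called higher at 96 h than at 48 h, 14.3% of those tested, and 2623 genes, 18.4%, were called lower, at an adjusted p under 0.05. At least a 2-fold change was reached by 459 of the genes called higher, 3.23% of all tested, and by 310 of those called lower, 2.18%. Of the 4658 genes called, 4630 moved the same way in all 3 donors, which a call made on these same donors largely fixes. Over all genes, the 96 h arrays lay all above the 48 h arrays in 18.65% and all below in 23.76%. The median change over all genes was −0.02. Without donor 2 the calls were 1451 higher and 1667 lower, and without donor 3 1170 and 1448, while the counts of 2-fold changes stayed between 429 and 504 higher and 268 and 313 lower. In whole cultures, a change in the share of cells of a type and a change in RNA per cell cannot be told apart.

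The labelled cell type was checked on its defining genes. The lineage factors Sox10 and Olig2 stood at means of 9.67 and 7.77 at 48 h and 9.51 and 7.88 at 96 h, against 8.92 and 7.31 in PDGF. The progenitor genes Pdgfra and Cspg4, the growth factor receptor and the proteoglycan that define OPCs, stood at means of 12.74 and 8.89 in PDGF at 0 h and at 11.32 and 6.98 at T3 96 h. As a measure of RNA quality, the 3′ minus 5′ difference of the beta-actin control probe sets was 0.80 to 0.94 on the 48 h arrays and 1.10 to 1.15 on the 96 h arrays, which do not overlap, and that of Gapdh was −0.26 to −0.19 and −0.26 to −0.22. The part of RNA quality in the changes below was not tested.

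The promoters of the genes at the ends of the step are shown first, because the strongest fall was shared by genes of cell division. Many promoters of such genes carry a CHR (cell cycle genes homology region), a short element near the start site through which they are silenced outside of division. The letters TTTGAA, on either strand, were present within 250 bases before to 50 bases after the start in 10 of 12 promoters of the 15 genes with the largest falls, in 43.2% of 44 promoters of the cell cycle list and in 27% of 256 promoters of all genes called lower at least 2-fold. They were present in 10.2% of 372 promoters of genes called higher at least 2-fold and in 12.3% of the 11701 promoters of genes tested. Of the genes called lower at least 2-fold that are not on the cell cycle list, 52 of 222 promoters, 23.4%, held them. The 4 largest falls with these letters are printed 5′ to 3′ on the strand of the gene, from RefSeq (GRCr8), with TTTGAA or its reverse complement in capitals.
Ect2 (chr2:111966577-111966876, minus strand): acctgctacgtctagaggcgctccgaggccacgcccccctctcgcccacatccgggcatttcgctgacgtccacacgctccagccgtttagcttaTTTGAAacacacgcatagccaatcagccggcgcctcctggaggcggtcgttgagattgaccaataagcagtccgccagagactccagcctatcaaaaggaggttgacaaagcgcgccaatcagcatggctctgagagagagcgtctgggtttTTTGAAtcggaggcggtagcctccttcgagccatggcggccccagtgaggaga
Cks2 (chr17:13727470-13727769, minus strand): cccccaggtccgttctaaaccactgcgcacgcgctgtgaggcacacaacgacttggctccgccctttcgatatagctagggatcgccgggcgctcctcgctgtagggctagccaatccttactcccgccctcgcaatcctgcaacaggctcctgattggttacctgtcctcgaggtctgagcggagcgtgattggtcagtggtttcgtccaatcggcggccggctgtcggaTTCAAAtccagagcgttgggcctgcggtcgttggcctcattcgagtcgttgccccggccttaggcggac
Mki67 (chr1:199952544-199952843, minus strand): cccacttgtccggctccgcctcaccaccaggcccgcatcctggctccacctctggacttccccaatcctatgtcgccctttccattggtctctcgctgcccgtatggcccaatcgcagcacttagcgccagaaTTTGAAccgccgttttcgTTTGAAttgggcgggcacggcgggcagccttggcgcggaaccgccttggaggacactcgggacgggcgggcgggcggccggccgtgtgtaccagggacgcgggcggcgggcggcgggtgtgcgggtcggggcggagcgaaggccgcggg
Cdk1 (chr20:19265043-19265342, plus strand): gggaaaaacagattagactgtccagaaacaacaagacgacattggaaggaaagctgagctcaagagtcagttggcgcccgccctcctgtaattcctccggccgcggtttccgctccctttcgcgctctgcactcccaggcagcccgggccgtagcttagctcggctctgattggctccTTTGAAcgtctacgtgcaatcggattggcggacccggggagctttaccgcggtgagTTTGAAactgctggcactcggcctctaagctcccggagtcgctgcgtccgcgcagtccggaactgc
In Cdk1 the 2 matches begin 72 and 16 bases before the start site, in Mki67 117 and 99 bases before, in Ect2 155 and 3 bases before, and the match of Cks2 begins 19 bases before it. Matches are a description of these letters and were not tested as sites.

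The promoter of Mobp is shown as that of the gene with the largest rise. The letters ACAAAG, part of the sequence bound by SOX factors such as SOX10, occurred 8 times in its promoter on the reverse strand, and no other of the 11701 promoters held as many. Capitals mark the 8 matches, which begin 242 to 120 bases before the start site in a repetitive stretch where these letters recur. They were not tested as sites.
Mobp (chr8:128746982-128747281, plus strand): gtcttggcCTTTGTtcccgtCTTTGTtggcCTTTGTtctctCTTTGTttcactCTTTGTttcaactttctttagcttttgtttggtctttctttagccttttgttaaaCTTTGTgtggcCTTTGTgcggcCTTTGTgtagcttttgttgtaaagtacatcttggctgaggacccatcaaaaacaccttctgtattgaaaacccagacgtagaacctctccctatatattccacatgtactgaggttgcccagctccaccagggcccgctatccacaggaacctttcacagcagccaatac
Among the risers as a group the letters were about as frequent as elsewhere: they were found in 14.2% of 372 promoters of genes called higher at least 2-fold and in 14.1% of all promoters. Opalin held 2 matches. The sterol regulatory letters TCACNCCAC were found in 0 of 20 promoters of the cholesterol list and in 1.11% of all promoters, and the ATF4 letters TGATGCAA in 3 of 40 promoters of the stress list and 0.615% of all.

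Some myelin genes rose after 48 h, and for others, many of them already bright at 48 h, no change was called. Of 28 measured genes for structural proteins of myelin and its surface, 14, 50%, were called higher, 1, 3.57%, lower and 13 not called. Among all genes 14.3% were called higher and 18.4% lower. The median change of the list was 0.66, against −0.02 over all genes. Mobp, which codes for a basic protein of compact central myelin, read 6.32, 5.55 and 5.72 in donors 1 to 3 at 48 h and 13.55, 13.21 and 13.45 at 96 h. Both groups lie far apart, with a change of 7.54 ± 0.30 (SE, limma adjusted p = 8.71e-14), and its other 2 probe sets gave 7.07 and 7.68. Opalin, a membrane protein of mature oligodendrocytes, read 4.33, 4.05 and 4.06 at 48 h and 10.80, 9.0 and 9.0 at 96 h. Its change was 5.45 ± 0.27 (SE, limma adjusted p = 2.60e-12), and at 48 h its mean of 4.15 had not left the PDGF level of 4.21. Mal, a proteolipid of myelin membranes, read 4.46, 4.90 and 5.07 at 48 h and 10.88, 9.96 and 9.88 at 96 h, a change of 5.42 ± 0.20 (SE, limma adjusted p = 3.40e-14). Donor 1 was the highest of the 3 in both Opalin and Mal at 96 h.

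A second tier of myelin genes rose in this step from a level already above PDGF. Mog, a surface antigen of the myelin sheath, read 9.85, 9.62 and 9.53 at 48 h and 11.91, 11.96 and 12.13 at 96 h, a change of 2.34 ± 0.37 (SE, limma adjusted p = 4.87e-05), after a rise of 2.87 between 24 and 48 h. Mag, an adhesion protein of the myelin membrane that faces the axon, read 11.83, 11.51 and 11.14 and then 13.04, 12.77 and 13.01, a change of 1.45 ± 0.21 (SE, limma adjusted p = 1.88e-05), after 3.95 between 24 and 48 h. Both steps use the 48 h arrays, so their values stand side by side without a test of one against the other. Gap junction protein Gjb1 (2.99), the cytoskeletal linker Ermn (2.76, and 5.38 and 5.43 by its other 2 probe sets, at similar signals), plasmolipin Pllp (1.84), Evi2a (1.70), the junction molecule Jam3 (1.33), the transcription factor Nkx6-2 (1.28), Omg (0.99), Cd9 (0.71) and Cd82 (0.66) were also called higher. Nkx6-2 lost its call without donor 2 or donor 3 (adjusted p = 0.0974 and 0.0777), and Cd82 whichever donor was left out, with a change of 0.28 without donor 1. For Gjb1 and Ermn the 48 h means of 6.58 and 4.08 were at or below the PDGF means of 6.72 and 4.19.

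The early myelin genes did not pass the test in this step. Mbp, the main basic protein of myelin, read 14.40, 14.21 and 14.22 at 48 h and 14.49, 14.48 and 14.46 at 96 h, where 14.49 is the highest value of the whole table. Its groups do not overlap, but the change of 0.20 had a 95% interval of −0.32 to 0.72 (limma adjusted p = 0.603), and the other 2 probe sets, at lower signals, gave 0.33 and 0.35, not called. Cnp, an enzyme of the myelin cytoplasm, read 13.88, 13.81 and 13.68 and then 13.92, 13.90 and 13.82, a change of 0.09 (limma adjusted p = 0.724). By 24 h Mbp and Cnp had gone from 8.75 to 12.81 and from 11.11 to 13.45. Whether signals so near the top of the scale could still show a rise was not tested. For Cldn11, the claudin of myelin, the brighter probe set changed by 0.65 (limma adjusted p = 0.127) and the dimmer was called higher by 1.71, and for Tspan2 the brighter gave 0.31 and the dimmer 0.64, called higher. Of the other listed genes, Nfasc, Gpm6b, Plekhb1, Ninj2, Cntn2, Cntnap1 and Pmp22 were not called. The brightest probe set of Nfasc gave −0.02 and the next −0.14, while dimmer ones were called higher by 0.74, 0.32 and 0.82. Bcas1, a marker of newly formed myelinating cells in mouse and human, was the only listed gene called lower, by 0.43 ± 0.13 (SE, limma adjusted p = 0.0165). Without donor 2 and without donor 3 it was not called (adjusted p = 0.0832 and 0.151).

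**Figure D1:**
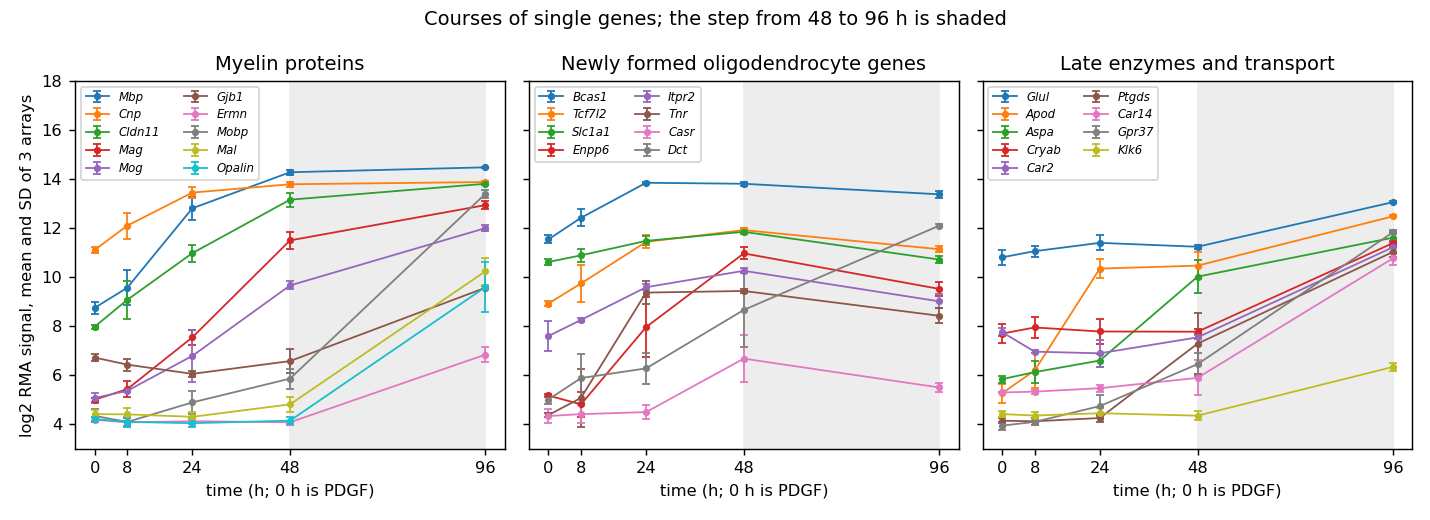
Mean log2 RMA signal (vertical axis, bars SD of 3 arrays) against time in hours (0 h is PDGF, then T3) for named genes of 3 lists, with the step from 48 to 96 h shaded. Mbp and Cnp are nearly level from 48 h, Mobp, Opalin and Mal climb steeply after it (Mobp from a 48 h mean of 5.86 that was already above its PDGF mean of 4.34), and Enpp6, Itpr2 and Casr come down from their 48 h means.

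Enzymes, receptors and transporters of the mature cell rose most broadly. Of 38 measured genes of this list, 28, 73.7%, were called higher and 0 lower, against 14.3% and 18.4% of all genes. A rise of at least 2-fold was reached by 19, and the median change was 1.08. Gpr37, a G protein-coupled receptor of oligodendrocytes, read 6.87, 6.54 and 5.94 at 48 h and 11.92, 11.75 and 11.82 at 96 h, a change of 5.38 ± 0.32 (SE, limma adjusted p = 6.79e-11). Carbonic anhydrases, which balance bicarbonate and pH, were among the largest: Car14 rose by 4.88 and Car2 by 3.68. The Car2 arrays read 7.64, 7.49 and 7.50 at 48 h and 11.36, 11.02 and 11.28 at 96 h. This gene had been below its PDGF mean at 24 h, by 0.86, so it turned upward late.

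Further members of the same list differed in their course before 48 h. Cryab, a small heat shock protein of mature oligodendrocytes, read 7.66, 7.82 and 7.84 at 48 h, against a PDGF mean of 7.70, and 11.50, 11.34 and 11.34 at 96 h. Klk6, a protease of oligodendrocytes, went from 4.13, 4.43 and 4.49 to 6.38, 6.17 and 6.47. Ptgds, which makes prostaglandin D2, had already risen by 3.03 from 24 to 48 h. It read 8.46, 7.41 and 5.99 at 48 h, a spread wider than most, and 11.29, 10.90 and 10.91 at 96 h, so the donors were further apart before the step than after it. Its change was 3.75 ± 0.32 (SE, limma adjusted p = 1.12e-08). Ppp1r14a (4.0), an inhibitor of myosin phosphatase, Galnt6 (2.84), the Hedgehog-binding protein Hhip (2.75) and the sphingosine phosphate receptor S1pr5 (2.66) followed. Aspa, which supplies acetate from N-acetylaspartate, rose by 1.59 ± 0.25, Apod, a lipid carrier, by 2.01 ± 0.31 and Glul, glutamine synthetase, by 1.82 ± 0.14 (SE, limma adjusted p = 4.46e-05, 3.83e-05 and 1.71e-09). The dimmer probe sets of Glul gave 2.87 and 3.25, and Glul is also on the list of astrocyte markers below.

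**Figure D2:**
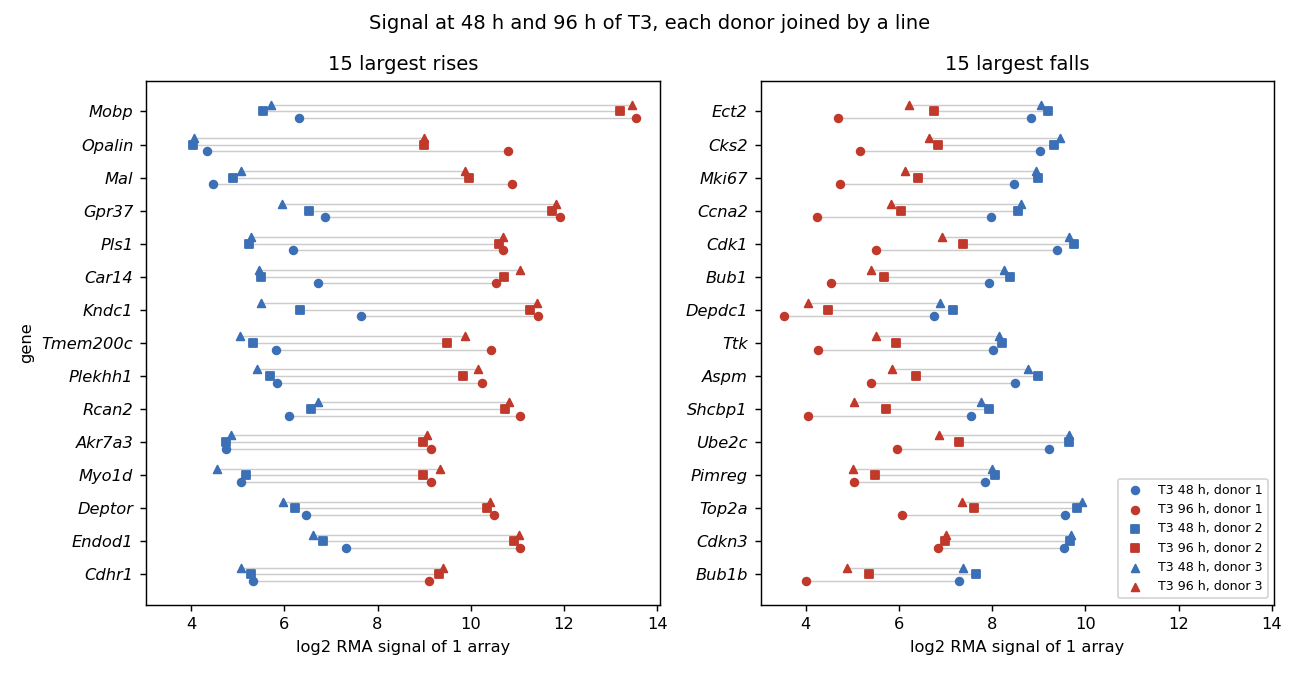
Log2 RMA signal of single arrays (horizontal axis) at T3 48 h (blue) and T3 96 h (red) for the 15 largest rises (left) and 15 largest falls (right), with donors 1, 2 and 3 as circles, squares and triangles joined by a line. The genes were chosen for the size of their change and its same sign in all donors, so their 2 groups of 3 arrays are apart by choice. Mobp runs from 5.55 to 13.55, and in Ect2 donor 1 is lowest at 96 h with 4.70.

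The 15 largest rises also named membrane, cytoskeletal and signalling genes. Pls1, an actin-bundling plastin, rose by 5.09, Kndc1, a Ras exchange factor of neurons, by 4.87, and Myo1d, an unconventional myosin, by 4.21. Rcan2, a regulator of calcineurin, rose by 4.40 and Deptor, an inhibitor of mTOR kinase, by 4.20. The Deptor arrays read 6.46, 6.22 and 5.98 at 48 h and 10.50, 10.34 and 10.42 at 96 h, without overlap. The others were Tmem200c (4.52), Plekhh1 (4.43), the aldehyde reductase Akr7a3 (4.28), Endod1 (4.09) and the cadherin-related Cdhr1 (4.04). The adjusted p-values of all 15 lay between 7.54e-15 and 6.89e-10 (limma).

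Some of these genes stayed at the PDGF level through the first 48 h. Of the 459 genes called higher by at least 2-fold, 140, 30.5%, had T3 means at 8, 24 and 48 h that were all within 0.5 of the PDGF mean. Of the 310 called lower 9, 2.9%, did. Both shares are below that of all genes, of which 62.7% stayed within that window. Opalin, Mal, Tmem200c, Plekhh1, Akr7a3 and Endod1 belong to these late risers, with Spock1 (3.81), a proteoglycan, Pex11a (3.68), which acts in peroxisome division, Cryab (3.62) and Jcad (3.56), a junction protein. Spock1 shows the pattern: its T3 means were 3.97, 4.12 and 4.13 at 8, 24 and 48 h against 3.91 in PDGF, and its 96 h arrays read 8.13, 7.87 and 7.84. The late falls were smaller. Myl9, a myosin light chain, fell by 1.46, Zdhhc2, a palmitoyltransferase, by 1.34, Smad2, the transducer of TGFβ and activin signals, by 1.21, and the endocytic protein Ehd1 by 1.13. Armcx4, Matcap1, Mtmr7, Fbxl19 and Cnot6l fell by 1.0 to 1.13. These classes use the 48 h arrays of the step and are given as a description.

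Genes of newly formed oligodendrocytes moved the other way. Of 28 measured genes, 14, 50%, were called lower and 4, 14.3%, higher, against 18.4% and 14.3% of all genes. Their median change was −0.41. From 24 to 48 h 16 of them had been called higher and 3 lower, with a median of 0.50. Among all genes 9.19% were called higher and 16.3% lower in that earlier step, which shares the 48 h arrays. Enpp6, a choline phosphodiesterase and a marker of the newly formed cell, read 11.26, 10.80 and 10.86 at 48 h and 9.26, 9.48 and 9.82 at 96 h, below every 48 h array. Its change was −1.45 ± 0.36 (SE, limma adjusted p = 0.00356), after a rise of 3.01 in the step before. Itpr2, a calcium release channel, fell by 1.24, the calcium-sensing receptor Casr by 1.18, the glutamate transporter Slc1a1 by 1.14 and tenascin-R (Tnr) by 1.01. For Slc1a1 the 3 arrays at 48 h read 11.94, 11.84 and 11.79 and those at 96 h 10.56, 10.86 and 10.74. Tcf7l2, the Wnt effector that marks this stage, fell by 0.78 ± 0.21 (SE, limma adjusted p = 0.00587). Without donor 3, 9 of the list were called lower. Tcf7l2 and Tnr lost their calls without donor 2 (adjusted p = 0.0749 and 0.0668) or donor 3 (0.069 and 0.115).

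Dct ran against its list. This tautomerase, known for pigment synthesis, read 10.13, 8.76 and 7.10 at 48 h and 12.14, 12.12 and 12.03 at 96 h, a change of 3.43 ± 0.37 (SE, limma adjusted p = 3.01e-07). Its 48 h arrays were far apart and its 96 h arrays were not. Sema4d (1.23), a semaphorin of oligodendrocytes, Fam107b (0.93) and Plekha1 (0.74) were the other genes called higher, Plekha1 not without donor 2 or donor 3 (adjusted p = 0.1 and 0.325).

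**Figure D3:**
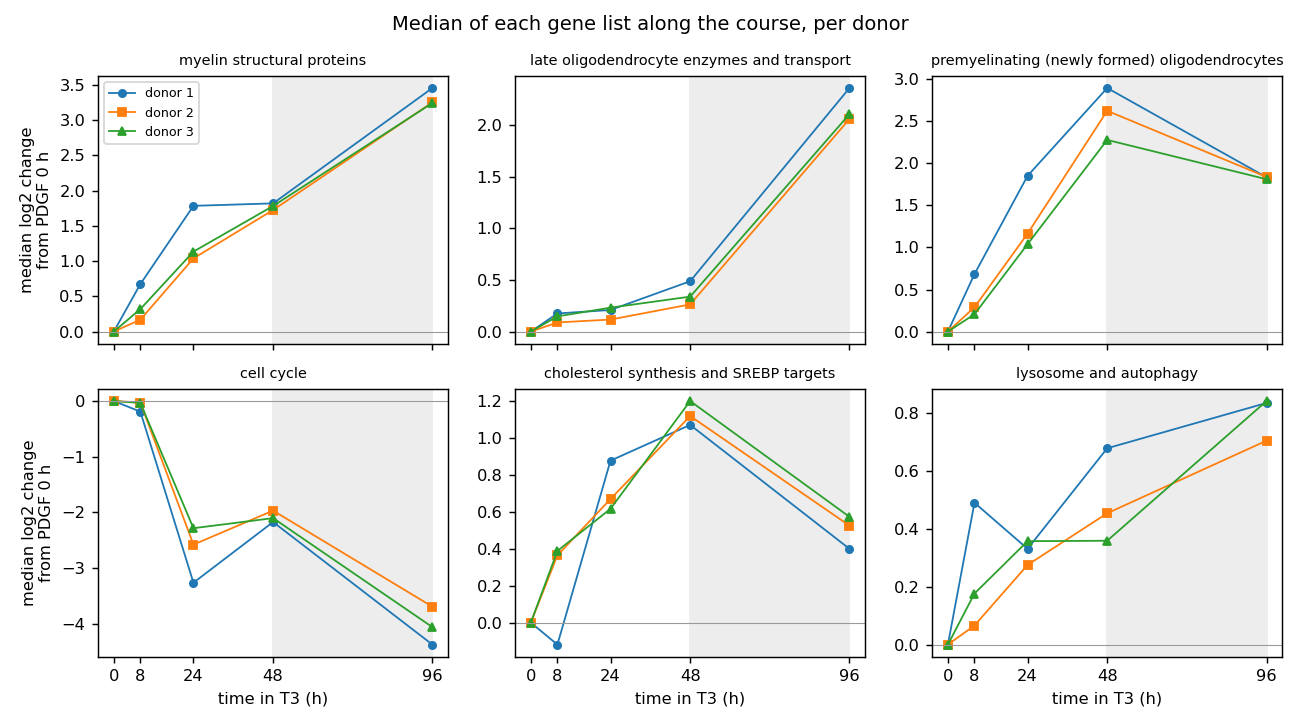
Median log2 change of the measured genes of 6 lists from the PDGF 0 h array of the same donor (vertical axis) against hours in T3, with 1 line for each donor and the step from 48 to 96 h shaded. In the late enzyme list donor 1 goes from 0.49 to 2.36 after 48 h, and in the premyelinating list the donors converge from 2.3 to 2.9 at 48 h onto 1.81 to 1.84 at 96 h.

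The deepest fall was that of cell division. Of 54 measured cell cycle genes 51, 94.4%, were called lower and 1 higher, against 18.4% and 14.3% of all genes. Their median change was −1.85, and 41 fell at least 2-fold. From 24 to 48 h, 20 of them had been called higher and 1 lower, with a median of 0.61. Among all genes 9.19% were called higher and 16.3% lower in that earlier step, which shares the 48 h arrays. Mki67, the proliferation antigen Ki-67, read 8.47, 8.99 and 8.94 at 48 h and 4.75, 6.40 and 6.12 at 96 h, a change of −3.04 ± 0.30 (SE, limma adjusted p = 1.07e-07). Its means at 0, 8 and 24 h were 11.10, 11.03 and 8.05. Ect2, which sets the cleavage furrow, fell by 3.15, from 8.84, 9.21 and 9.06 to 4.70, 6.76 and 6.22, and Cks2, a subunit of cyclin-dependent kinases, fell by 3.06. Cdk1, the mitotic kinase, read 9.39, 9.77 and 9.66 at 48 h and 5.51, 7.38 and 6.93 at 96 h. Its partners Ccna2 and Ccnb1 fell by 3.01 and 2.67. Donor 1 was the lowest at 96 h in each of these genes. With each donor left out in turn, 45 to 51 genes of the list were still called lower.

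All 15 largest falls were genes of mitosis, DNA topology or division, among them Bub1 (−2.99), Ttk (−2.90), Bub1b (−2.68), the spindle pole protein Aspm (−2.87), the ubiquitin-conjugating enzyme Ube2c (−2.81), Top2a (−2.77) and Cdkn3 (−2.68), with Depdc1 (−2.90), Shcbp1 (−2.81) and Pimreg (−2.79). Genes of DNA replication fell less: Mcm2, Mcm3, Mcm4, Mcm5 and Mcm7 fell by 0.80 to 1.05, Mcm6 by 2.19 and Pcna by 0.39. Fen1, a flap endonuclease of replication, was the only member called higher, by 1.18 ± 0.21 (SE, limma adjusted p = 0.000124). It is measured by a single probe set, which read 7.96, 8.02 and 7.81 at 48 h and 9.41, 8.77 and 9.15 at 96 h. Without donor 2 the calls of Mcm2, Mcm4 and Pcna were lost, and without donor 3 those of Mcm3 and Mcm5, with adjusted p-values of 0.0507 to 0.0741.

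Inhibitors of the cycle were split. Cdkn1a (p21) rose by 1.33 ± 0.20 and Cdkn1b (p27) by 0.81 ± 0.11 (SE, limma adjusted p = 1.88e-05 and 3.90e-06), and Gadd45b, Ccng1, Tob1 and Rb1 rose by 1.76, 0.98, 0.56 and 0.31. Cdkn1c (p57), Rbl1, Cdkn2d, Cdkn2a and Cdkn2b fell by 0.99, 0.91, 0.83, 0.78 and 0.48. In all 6 of 19 measured genes of this list, 31.6%, rose, 5, 26.3%, fell and 8 were not called. Among all genes 14.3% were called higher and 18.4% lower. Tob1 and Rb1 lost their calls without donor 2 or donor 3, with adjusted p up to 0.305, and Cdkn2a and Cdkn2b without donor 1 or donor 3, with adjusted p up to 0.197.

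Sterol synthesis fell in the same step. Of 24 measured genes of the cholesterol pathway and its SREBP regulators, 18, 75%, were called lower and 1, 4.17%, higher. Among all genes 18.4% were called lower and 14.3% higher. The median of the list was −0.71. From 24 to 48 h, 7 had been called higher and 0 lower, against 9.19% higher and 16.3% lower among all genes. That earlier step shares the 48 h arrays. Tm7sf2, a sterol reductase, read 11.72, 11.28 and 11.28 at 48 h and 10.08, 9.98 and 9.96 at 96 h, a change of −1.42 ± 0.21 (SE, limma adjusted p = 1.81e-05). Mvd, mevalonate decarboxylase, fell by 1.02, Hsd17b7 and Fdft1, which makes squalene, by 0.93 each, Lss by 0.82, and the regulators Srebf2 and Srebf1 by 0.72 and 0.71. Scap, the SREBP escort protein, rose by 0.33 ± 0.11 (SE, limma adjusted p = 0.0212). The fall did not return the list to the progenitor level: its median against PDGF was 1.07 to 1.20 in the 3 donors at 48 h and 0.40 to 0.57 at 96 h. Without donor 3, 10 genes of the list were called lower, and Mvd, Lss, Hsd17b7 and Scap were not called (adjusted p = 0.0946, 0.0507, 0.149 and 0.199). Hsd17b7 was not called without donor 2 either.

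Among genes of fatty acids and sphingolipids, 15 of 55, 27.3%, fell and 11, 20%, rose, against 18.4% and 14.3% of all genes. The desaturases Scd and Fads2 fell by 1.65 and 1.34, lipoprotein lipase Lpl by 1.52, the acyl-CoA synthetase Acsl4 by 1.13, Acss2 by 1.05 and Acly, the source of cytosolic acetyl-CoA, by 0.75. Galc, the lysosomal galactosylceramidase, rose by 1.22, the cholesterol exporter Abca1 by 1.12, Elovl1, an elongase of very long chains, by 1.09, Degs1, which completes ceramide, by 1.08 and Cers2, the ceramide synthase of very long chains, by 0.73. For Scd the 48 h arrays read 11.93, 11.28 and 11.25 and the 96 h arrays 10.09, 9.68 and 9.75. Fasn (−0.28) and the galactolipid enzyme Ugt8 (0.28) did not pass the test. Without donor 2, 9 of the list were called lower, and without donor 3, 6 were called higher, Abca1 no longer among them (adjusted p = 0.0554).

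Lysosomal genes rose: 21 of 37, 56.8%, were called higher and 3, 8.11%, lower, against 14.3% and 18.4% of all genes. Their median change was 0.42. Ctsl, the protease cathepsin L, read 11.59, 10.66 and 10.75 at 48 h and 13.61, 13.51 and 13.68 at 96 h, a change of 2.60 ± 0.25 (SE, limma adjusted p = 5.34e-08). Ctsa (1.65), the autophagy protein Wipi1 (1.29), the membrane proteins Lamp1 (1.25) and Lamp2 (1.20), Tpp1 (1.18) and Hexa (1.12) followed, and Lipa, Atg5 and Glb1 fell by 0.39, 0.32 and 0.29. Without donor 3, Lipa, Atg5 and Glb1 were not called (adjusted p = 0.105, 0.0844 and 0.0966), and Glb1 was not called without donors 1 or 2.

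Ribosomal protein genes fell, with changes from −0.92 to −0.12. Of 27 measured, 24, 88.9%, were called lower and 0 higher, against 18.4% and 14.3% of all genes. The median was −0.33. Rpl28 (−0.92), Rpl24 and Rpl3 (both −0.46) and Rpl22 (−0.44) changed the most. The probe set of Rpl28 is dim, with a mean signal of 5.70, against a median of 13 for the list at 48 h. Without donor 3, 12 were called lower, with a median of −0.32. Respiratory chain genes shifted less, with 9 of 35, 25.7%, called lower, 2, 5.71%, higher and a median of −0.12. When a donor was left out, 1 to 5 of them were called lower. In glycolysis the muscle and neuron type enzymes rose, Eno2 by 2.51 and Pfkm by 0.88, with the lactate and ketone transporter Slc16a1 by 1.70 and Pfkfb3 by 1.04, while Ldha fell by 0.80, Pfkp by 0.71 and Pfkl by 0.44. Pfkl was not called without donor 2 or donor 3 (adjusted p = 0.0525 and 0.0534). In all, 7 of 27 glycolysis genes, 25.9%, were called higher and 6, 22.2%, lower, or 4 and 3 without donor 3.

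**Figure D4:**
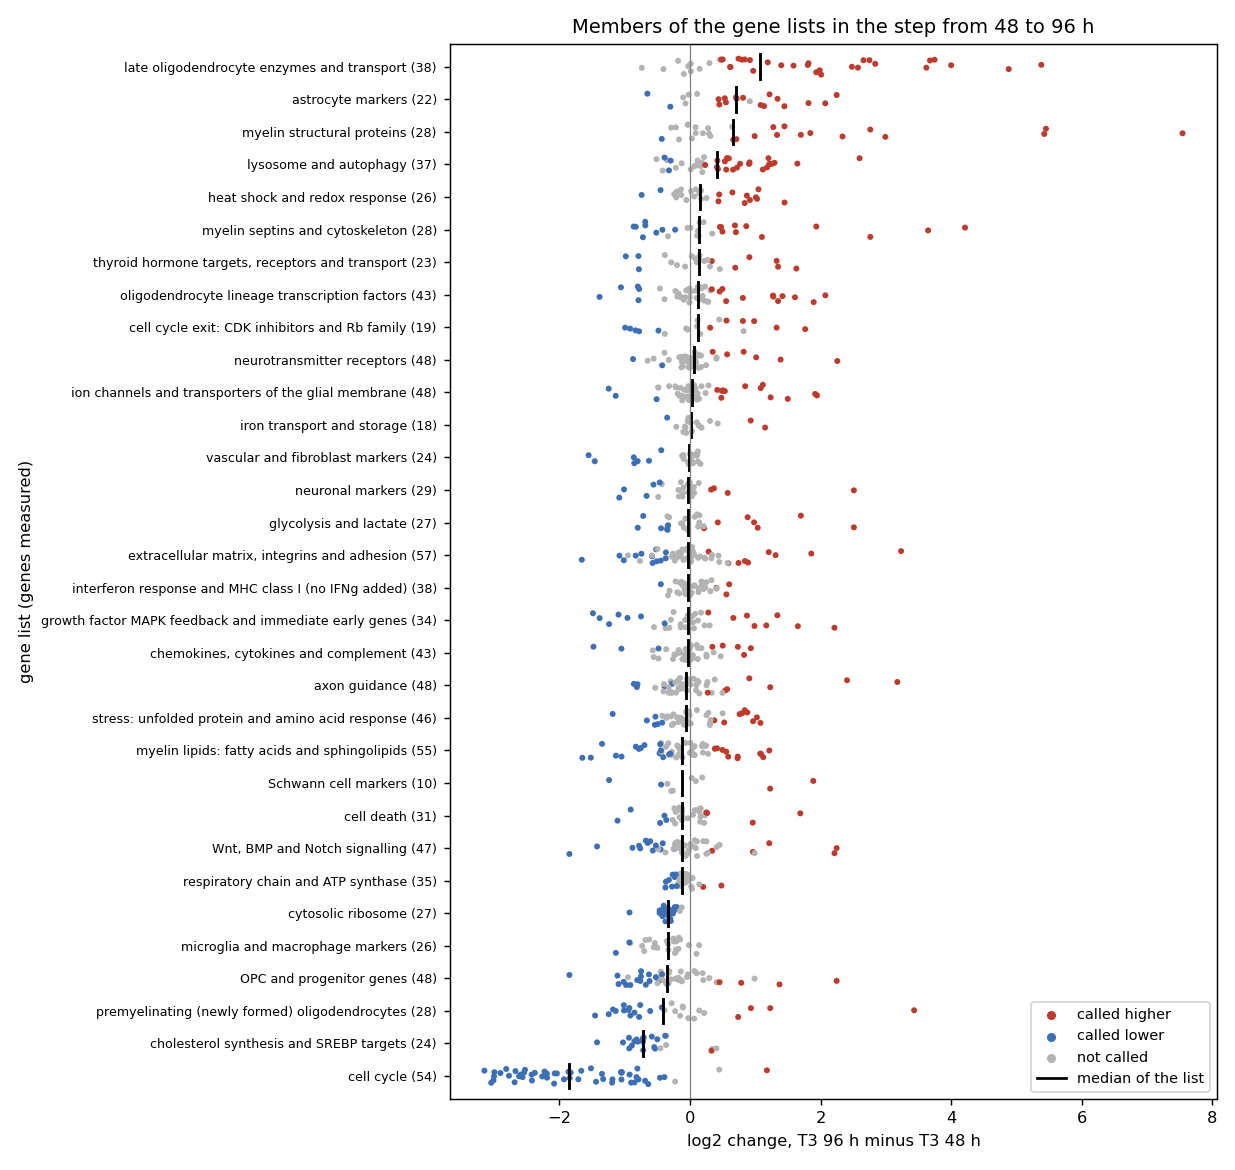
Log2 change from T3 48 h to T3 96 h (horizontal axis) of every measured gene of the 32 lists, coloured by its call, with a black bar at the median of the list and the number of genes measured in brackets. The late enzyme list has its median at 1.08 and the cell cycle list at −1.85.

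Regulators of the lineage moved in both directions. Of 43 transcription factors of the oligodendrocyte lineage 12, 27.9%, were called higher and 5, 11.6%, lower, against 14.3% and 18.4% of all genes. Creb5 (2.07), Zfp536 (1.90), Bhlhe41 (1.61), the deacetylase Hdac11 (1.42) and the thyroid hormone targets Klf9 (1.35) and Klf13 (1.27) rose. Klf9 read 9.13, 9.17 and 9.33 at 48 h and 10.67, 10.54 and 10.47 at 96 h. Zfp488, a corepressor partner of Olig2, fell by 1.05, and the thyroid receptor Thrb by 0.79 while Thra rose by 0.34. The core factors Sox10 (−0.16), Olig2 (0.11), Nkx2-2 (0.20) and Myrf (0.00) were not called, and Olig1 rose by 0.46. Thrb was not called without donor 2 or donor 3 (adjusted p = 0.16 and 0.143) and Thra not without donor 1 (0.0505), and 3 of the list were called lower without donor 2 or donor 3.

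Progenitor genes fell further in part. Of 48 measured, 18, 37.5%, were called lower and 4, 8.33%, higher, against 18.4% and 14.3% of all genes. Their median change was −0.34. The Notch ligand Jag1 fell by 1.84 ± 0.15 (SE, limma adjusted p = 6.41e-09), from 8.40, 8.49 and 8.51 to 6.42, 6.66 and 6.79. Nestin (Nes), the intermediate filament of progenitors, fell by 1.11, Etv5 by 1.09, Ccnd1 by 1.01 and Cspg4 by 0.63, and Pdgfra changed by −0.32 (limma adjusted p = 0.0734). Among signalling genes, Dusp6, Egr2, Egr1, Spry4 and Spry1 fell by 1.48, 1.24, 1.38, 0.96 and 0.75, and the growth factor Pdgfa by 1.48. Dusp1 (2.21), Atf3 (1.65), Jun (1.34), Jund (1.17) and Fos (0.99) rose. Dusp1 read 6.41, 6.08 and 6.19 at 48 h and 8.73, 8.09 and 8.50 at 96 h. Without donor 3, 11 progenitor genes were called lower and 1 higher. The signalling list holds growth factor feedback and immediate early genes, and its median change was −0.03. Of its 34 measured genes 8, 23.5%, were called higher and 7, 20.6%, lower, or 5 and 4 without donor 3. Cspg4 lost its call whichever donor was left out (adjusted p = 0.093 to 0.149), Egr1 and Spry1 without donor 3 (0.0839 and 0.0527) and Egr2 without donor 2 (0.104).

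The cytoskeleton of the myelinating cell was also split. Of 28 measured genes 11, 39.3%, rose and 8, 28.6%, fell, against 14.3% and 18.4% of all genes. Septin4, which forms filaments in the inner layers of myelin, rose by 3.65 ± 0.24 (SE, limma adjusted p = 1.86e-10), from 9.65, 8.90 and 8.31 to 12.70, 12.50 and 12.60. Septin6, Septin9 and Septin2 fell by 0.83, 0.68 and 0.23, and Septin7 (0.13) and Septin8 (0.21) were not called. Gsn, gelsolin, which severs actin, rose by 1.94 and the microtubule protein Stmn1 by 1.10. Septin2 was not called without donor 1 or donor 3 (adjusted p = 0.123 and 0.21).

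Markers of other cells in the cultures were measured beside these results. Of 22 astrocyte markers, 15, 68.2%, were called higher and 2, 9.09%, lower, against 14.3% and 18.4% of all genes. Their median change was 0.71, and 7 of the 22 are on other lists here as well. The mean signal of the list was 8.42 to 8.91 on the 48 h arrays and 9.16 to 9.63 on the 96 h arrays. The water channel Aqp4, which defines astrocytes, read 9.39, 9.89 and 10.33 and then 10.13, 10.80 and 11.12, a change of 0.81 ± 0.27 (SE, limma adjusted p = 0.0235) with groups that overlap. Gfap, their intermediate filament, read 8.96, 9.95 and 10.36 and then 9.97, 11.08 and 10.97, a change of 0.92 that was not called (limma adjusted p = 0.241). Gja1 rose by 1.14, Id3 by 2.25, Hopx by 2.07 and Clu by 1.34, and Aldh1l1 fell by 0.65. From 24 to 48 h none of the list had been called higher and 9 lower, against 9.19% higher and 16.3% lower among all genes. That earlier step shares the 48 h arrays. The part of astrocytes in the rises from 48 to 96 h was not tested. Without donor 2 and without donor 3, 10 and 9 of the list were called higher, and Aqp4, Id3 and Aldh1l1 were not called (adjusted p = 0.0983 to 0.217).

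Of the other marker lists, those of microglia and of the interferon response held few calls, against 14.3% higher and 18.4% lower among all genes. Of 26 microglia and macrophage markers 2 were called lower, Fcer1g and Cd53, and 0 higher. Their mean signal was 5.21 to 6.20 on the 48 h arrays, with donor 3 the highest, and 4.95 to 5.36 on the 96 h arrays. Of 24 vascular and fibroblast markers 7, 29.2%, were called lower, among them Postn (−1.55), Myl9 (−1.46) and Tagln (−0.85), and 0 higher. Of 29 neuronal markers 4 were higher, 13.8%, and 5 lower, 17.2%, with Rbfox3 (0.07), Tubb3 (−0.11) and Snap25 (−0.11) not called. Of 38 interferon response and MHC class I genes, in these cultures without IFNγ, 3 were higher (B2m, Irf1 and Irgm) and 1 lower (Psmb9), with no change of 2-fold, and without donor 2, or without the donor block, 0 were called in either direction. Psmb9 lost its call whichever donor was left out (adjusted p = 0.0513 to 0.369). Without donor 3 neither Fcer1g nor Cd53 was called (adjusted p = 0.21 and 0.411), 4 vascular and fibroblast markers were, and Tagln was not. The neuronal calls without donor 3 were 1 higher and 3 lower. Of 10 Schwann cell markers 2 were higher and 2 lower, with 3 lower without donor 1 and 1 without donor 2.

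Lists of membrane and signalling genes held both rises and falls. The shares called higher and lower were 15.8% and 21.1% for matrix and adhesion, near the 14.3% and 18.4% of all genes. They were 12.5% and 4.17% for neurotransmitter receptors and 14.6% and 10.4% for axon guidance. For Wnt, BMP and Notch signalling they were 10.6% and 27.7%. Among 48 ion channels and transporters 12 were called higher, 25% against 14.3% of all genes, and 3 lower, 6.25% against 18.4%, with the potassium channel Kcna6 rising by 1.95 and the sodium, potassium and chloride cotransporter Slc12a2 by 1.92. Slc12a2 read 11.75, 11.44 and 10.96 at 48 h and 13.37, 13.23 and 13.30 at 96 h, without overlap. Of 48 neurotransmitter receptors 6 were higher and 2 lower (5 lower without donor 1 and 0 without donor 2), and the GABA receptor subunit Gabrg1 rose by 2.26, from 7.32, 7.38 and 7.42 to 9.88, 9.48 and 9.53. Of 48 axon guidance genes 7 were higher and 5 lower, led by Robo2 (3.18), a receptor for Slit proteins, and Efna1 (2.41), an ephrin, and 2 were lower without donor 2 or donor 3. Of 57 genes of matrix and adhesion 9 were higher and 12 lower, and the adhesion molecule Mcam rose by 3.23 ± 0.21 (SE, limma adjusted p = 2.68e-10). Of 47 genes of Wnt, BMP and Notch signalling 5 were higher and 13 lower, where the Wnt receptor Fzd1 rose by 2.21 and the ligand Bmp2 fell by 1.42. Without donor 2, 2 of this last list were called higher and 7 lower, and without donor 3, 2 and 8.

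Stress and death genes moved in both directions, against 14.3% called higher and 18.4% lower among all genes. The shares for cell death, 12.9% and 16.13%, were near these. They were 19.57% and 13.04% for the unfolded protein and amino acid response and 38.46% and 7.692% for heat shock and redox genes. Thyroid hormone genes had 26.09% and 13.04%, iron genes 11.11% and 5.556%, and chemokine, cytokine and complement genes 11.63% and 6.977%. Of 46 genes of the unfolded protein and amino acid response 9 were called higher and 6 lower, or 4 and 2 without donor 3, with Ddit3, a transcription factor of this response, rising by 1.08. Of 26 heat shock and redox genes 10 were higher and 2 lower (4 lower without donor 1 and 1 without donor 2 or donor 3), among them the glutathione transferase Gstm1 (1.45), whose arrays read 8.88, 9.28 and 9.46 at 48 h and 10.52, 10.82 and 10.64 at 96 h, again without overlap. Of 31 cell death genes 4 were higher and 5 lower, or 2 and 2 without donor 3, and Bmf, which promotes apoptosis, rose by 1.69 while the inflammatory caspase Casp4 fell by 1.11. Of 23 thyroid hormone genes 6 were higher and 3 lower, and without donor 2 none was lower. Of 18 iron genes 2 were higher and 1 lower, and of 43 chemokine, cytokine and complement genes 5 were higher and 3 lower, or 3 and 2 without donor 3.

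Set beside the first day of T3, which uses none of these arrays, the step continued the change of some genes and ran against that of others. At 24 h, 19.9% of all genes were called higher than in PDGF and 20.7% lower. Of the 2035 genes called higher in the step, 771 had also been called higher at T3 24 h against PDGF, 243 had been called lower and 1021 not called. Of the 2623 called lower, 1173 had been called lower at 24 h, 498 higher and 952 not called. The largest falls among genes that had risen by 24 h were Kcnj12, an inward rectifier potassium channel, which went from 4.17 in PDGF to 6.30 at 24 h and 7.51 at 48 h and back to 5.44 at 96 h, a step of −2.07, and Aard (−2.02), Efr3b (−1.85), Abcg3l1 (−1.73) and Cmtm7 (−1.66). The largest rises among genes that had fallen by 24 h were Cdhr1 (4.04), the membrane-binding Anxa2 (3.78), Car2 (3.68), Tmem178a (3.13) and the phosphatase Dusp10 (3.0). Tmem178a fell from 9.71 to 7.31 by 24 h and stood at 11.16 at 96 h.

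In cultures given IFNγ, an inflammatory cytokine that hampers oligodendrocyte differentiation, the same step was measured in the same 3 donors. Among all genes, 71.5% moved in the same direction with and without IFNγ, and 15.8% were called higher and 14.5% lower with it. Of the 459 genes that rose at least 2-fold with T3 alone, 449 moved up with IFNγ too and 389 were called higher there. Their median change was 1.54 without and 1.04 with IFNγ. The difference between the steps was called for 165 of them, negative (a smaller rise with IFNγ) in 147 and positive in 18. These genes were chosen for their rise with T3 alone, which by itself favours a larger median there, so these medians and this split are a description. Chosen instead on the step with IFNγ, after the first result was seen, 406 genes rose at least 2-fold, with medians of 1.47 with IFNγ and 1.24 without, and the difference was positive in 102 and negative in 48. Over all genes the difference was called positive in 421 genes, 2.96%, and negative in 294, 2.07%. With the arrays centred on bright genes this split became 311 and 393. Without donor 2 it was 29 and 66, and without donor 3 142 and 88. Of the 310 genes that fell at least 2-fold with T3 alone, 298 fell with IFNγ too and 258 were called. Their medians were −1.32 without and −1.05 with IFNγ. Chosen instead on the step with IFNγ, 269 genes fell at least 2-fold, with medians of −1.38 with IFNγ and −1.13 without. The medians of the falls are likewise a description.

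The step of Mal was 1.19 with IFNγ against 5.42 without, a difference of −4.23 ± 0.29 (SE, limma adjusted p = 1.68e-08). That of Opalin was 1.90 against 5.45, and that of Anxa2, a protein that binds membranes and actin in the presence of calcium, 0.76 against 3.78. For other late genes the difference was not called: the step of Mobp was 6.13 against 7.54 (limma adjusted p = 0.0557 for the difference), of Gpr37 5.01 against 5.38 and of Car14 4.79 against 4.88. Kndc1 stepped up by more with IFNγ, 6.32 against 4.87, as did Dct, 6.65 against 3.43, and Ptgds, 6.42 against 3.75. The larger steps of Kndc1 and Dct began from lower 48 h means with IFNγ, 4.22 against 6.5 and 5.6 against 8.66. At 96 h their means were 10.54 with IFNγ against 11.37 without for Kndc1 and 12.24 against 12.1 for Dct. Apod rose by 2.01 without IFNγ, and with it the change was −0.99. Nxpe2 fell by 1.59 without IFNγ and rose by 3.76 with it, and Casr fell by 1.18 and rose by 1.91. For 3 of these 5 genes with the greatest positive difference the direction was not opposite: Dct, Prickle1 (0.97 without and 3.91 with), and Tmem140 (0.25, not called, and 3.16). Prickle1 also began lower with IFNγ, at a 48 h mean of 6.75 against 10.27, and stood at 10.66 against 11.24 at 96 h. Tmem140 began higher with IFNγ, at 7.47 against 5.65. The step of Prickle1 with T3 alone was not called without donor 2 or donor 3 (adjusted p = 0.0732 and 0.29). Without donor 2 the differences of Kndc1, Dct, Ptgds, Apod and Prickle1 were not called (adjusted p = 0.0691 to 0.47), while those of Mal, Opalin, Anxa2, Nxpe2, Casr and Tmem140 were, with any donor left out.

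**Figure D5:**
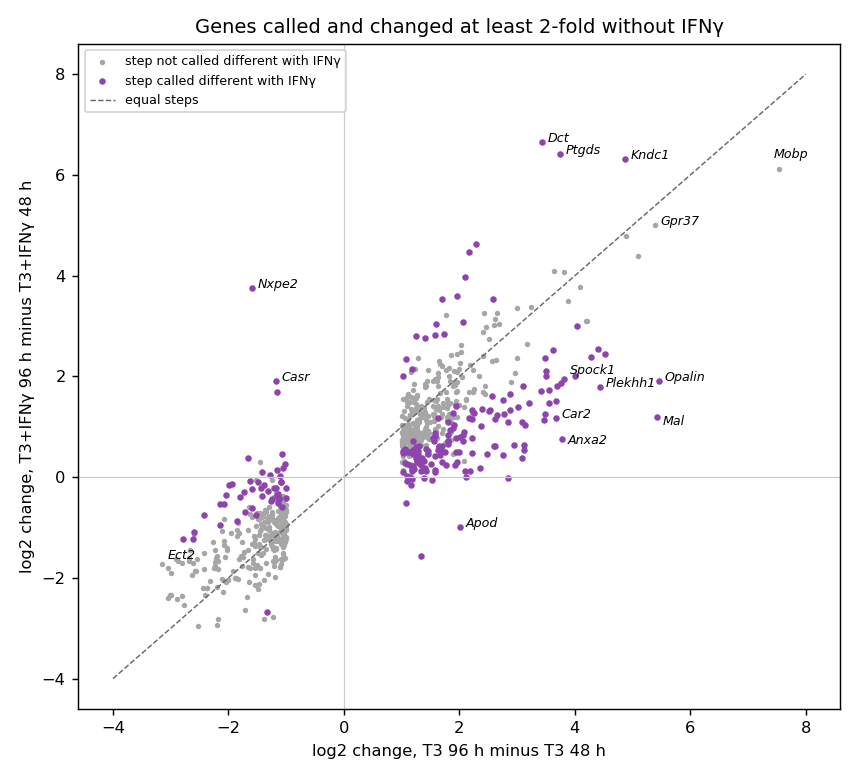
Log2 change from 48 to 96 h with T3 and IFNγ (vertical axis) against that with T3 alone (horizontal axis) for the 769 genes called and changed at least 2-fold with T3 alone. Purple points are genes whose steps were called different, and Mal at 5.42 and 1.19 lies far below the dashed line of equal steps.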

How the data were processed

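Gene expression was measured on 27 Affymetrix rat arrays of cultured OPCs, 3 donors in each of 9 groups, which were assigned from the sample labels. The deposited values are log2 signals that the authors computed by RMA (background correction, quantile normalization and probe set summary); their notes also name limma, and give no versions. The values run from 2.3 to 14.49, with array medians of 5.95 to 6.03, and were used without further scaling or filter. Quantile normalization hides a change of total RNA, and arrays give no counts, so the number of arrays limits the precision.

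Of 31099 probe sets, 57 of them controls, 20832 had 1 gene symbol, 436 several and 9831 none in the platform annotation of 2016. Symbols were updated by Entrez identifier for 20764. The brightest probe set over all arrays stood for each of 14217 genes, 4527 of which had more than 1. A probe set of lower signal was called opposite to another of its gene for 30 genes, none named here.

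R 4.3.3 with limma 3.58.1 fitted 1 mean for each group and a donor block over all 27 arrays, leaving 16 residual degrees of freedom, with eBayes and Benjamini-Hochberg adjustment over all genes. Donor labels pair the arrays, since the departures of each array from its group mean correlated at 0.41, 0.31 and 0.34 between the 48 h and 96 h arrays of donors 1, 2 and 3. Whether a donor is 1 animal or a pool of animals is not given in the sources used here. The step with IFNγ minus the step without was tested in the same fit. The calling steps were tested on simulated data before use. Python 3.11.15, pandas 2.3.3, NumPy 2.4.6 and matplotlib 3.10.9 made the tables and plots.

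The comparison, the 32 gene lists and the rule for named genes were chosen with earlier results of these data known. Named are the 15 largest rises and falls called and alike in all donors, the called myelin proteins and most of those not called, up to 4 called members of each other list with the largest change and those against their list, the 5 largest differences of each sign with IFNγ, the 10 largest late risers and late falls, and the 5 largest turns. Other members are named as values after they were seen. Alternatives were no block, fewer arrays, other probe set rules, a filter, 2 centrings, another moderation and each donor left out. Promoters (RefSeq, GRCr8) matched 11701 of the genes tested, 82.3%. Some listed genes are not analysed here.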

Additional observations from a re-analysis of the deposited data

Results flagged for a closer look

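The step from 48 to 96 h differed between cultures with and without IFNγ, by limma's test of the difference itself, and this is what set these results apart. Over all genes the step was higher with IFNγ in 421 and lower in 294. Among the 15 largest rises with T3 alone, the difference (the step with IFNγ minus the step without, log2) was −4.23 for Mal, −3.55 for Opalin, −2.65 for Plekhh1, −2.08 for Tmem200c, −1.90 for Akr7a3, −1.86 for Rcan2 and −1.04 for Cdhr1, and it was 1.44 for Kndc1. These genes were chosen on the step with T3 alone. Among the 15 largest falls only Pimreg was called, with a difference of 1.56. The greatest positive differences were those of Nxpe2 (5.35), Dct (3.21), Casr (3.09), Prickle1 (2.94) and Tmem140 (2.91), and the greatest negative ones beside Mal and Opalin were those of Scg2 (−3.08), Calcb (−3.07) and Anxa2 (−3.02). Among the positive ones, the 48 h mean with IFNγ was higher than without for Tmem140 (7.47 against 5.65). It was lower for Nxpe2, Casr, Dct (5.6 against 8.66) and Prickle1 (6.75 against 10.27). Without donor 2, the differences of Kndc1, Dct, Prickle1, Tmem200c, Rcan2, Cdhr1, Pimreg, Scg2 and Calcb were not called, and without donor 3 those of Tmem200c, Rcan2, Cdhr1, Pimreg, Scg2 and Calcb were not. Neither Scg2 nor Calcb was called in the step with T3 alone (0.25 and −0.84).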

How the results depend on the processing

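With each donor left out in turn, 1170 to 1978 genes were called higher and 1448 to 2432 lower in the step from 48 to 96 h. The difference between the steps with and without IFNγ was then called positive in 29 to 405 genes and negative in 66 to 382, the lowest counts being those without donor 2. Without the replicate block, that is with the pairing by donor ignored, the difference was called in 229 and 170 genes, and the step itself in 1679 higher and 2087 lower. The counts at least 2-fold stayed within 1.5 times of the reported ones in all 11 alternatives. With centring on bright genes the difference split into 311 positive and 393 negative, and in a fit of the 12 arrays concerned into 314 and 311. No named gene that was called turned its direction in any alternative. Of the 211 called among the 227 named, 147 held their call in every alternative and 64 lost it in at least 1. The median of each list kept its sign under both centrings except that of vascular and fibroblast markers, −0.02 as reported and 0.001 with median centring. The cause of these shifts was not tested. Only 3 arrays in each group limit the precision.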
